A study of Mus musculus with 2 samples.

Results

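The cells described here are tumour macrophages that carried transcripts of the complement protein C1q together with Folr2, Cbr2 or Ccl8, genes of tissue-resident macrophages. They were chosen by a rule on measured values. A barcode needed at least 10 UMIs (unique molecular identifiers, which count captured transcripts) of C1qa, C1qb and C1qc summed, and at least 2 UMIs of Folr2, Cbr2 and Ccl8 summed. It could hold 0 UMIs of the T and NK cell genes Cd3d, Cd3e, Cd3g and Ncr1, and fewer than 3 of the dendritic cell genes Xcr1, Clec9a, Ccr7 and Siglech. The rule found 1025 of 22699 kept barcodes, of which 576 were among 13762 in the IL4 library and 449 among 8937 in the control library. They are called gated cells below.

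The leukocytes (CD45-positive cells, taken by flow sorting) came from B16F10 tumours grown under the skin. B16F10 is a transplantable mouse melanoma line. In the IL4 group the mice had received bone-marrow-derived macrophages exposed to interleukin-4, and in the control group untreated ones. Both carry the genotype label WT. For strain, age and the number of animals the sources used here give nothing. The protocol field names IL-4-exposed macrophages for both libraries, so the grouping follows the treatment given among each sample's characteristics. Transferred and host macrophages could not be told apart. The IL4 library held 133151428 UMIs in 13873 barcodes and the control library 95499107 in 8994.

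There was 1 library per group. No difference below can be checked against replicates, so no test and no p-value is given. The comparisons are of these libraries, and each 95% interval covers counting error only.

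C1q is the recognition unit of the classical complement pathway, and in many tissues it is made mainly by macrophages. Folr2 encodes a folate receptor, Cbr2 a carbonyl reductase and Ccl8 a chemokine that attracts monocytes and T cells. Macrophages with this set of genes are known from many mouse tissues as long-lived cells that engulf dying cells and are often found along vessels, and the transcription factor Maf helps to hold their gene programme in place.

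The 3 C1q genes lie side by side on the minus strand of mouse chromosome 4 (mm10, GENCODE M21 annotation), with C1qa at chr4:136895917-136898803. Folr2 lies at chr7:101839988-101857194 on the minus strand, Cbr2 at chr11:120729489-120732114 on the minus strand and Ccl8 at chr11:82115185-82116799 on the plus strand. The 250 bases before the transcription start are given, 5′ to 3′, for genes of the rule that hold the MAF half-site and for chemokine genes that differed between the libraries and hold an NF-kB motif (RefSeq starts, GRCm38.p6, which is mm10). Capitals mark TGCTGA, the MAF half-site, on either strand in the first 3, and an NF-kB motif (GGG, any 2 bases, then TTTCC) on either strand in the last 2. The windows are chr4:136886201-136886450, minus strand, for C1qb, and chr7:101845332-101845581, minus strand, for the Folr2 start that lies well inside the annotated gene. The others are chr11:82114935-82115184, plus strand, for Ccl8, chr5:90890995-90891244, plus strand, for Cxcl1, and chr5:90785851-90786100, plus strand, for Cxcl3.
C1qb: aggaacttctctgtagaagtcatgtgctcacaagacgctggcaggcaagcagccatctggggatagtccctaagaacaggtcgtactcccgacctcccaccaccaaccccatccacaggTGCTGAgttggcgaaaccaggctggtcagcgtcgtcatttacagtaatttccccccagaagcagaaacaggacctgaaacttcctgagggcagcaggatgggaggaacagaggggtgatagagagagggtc
Folr2: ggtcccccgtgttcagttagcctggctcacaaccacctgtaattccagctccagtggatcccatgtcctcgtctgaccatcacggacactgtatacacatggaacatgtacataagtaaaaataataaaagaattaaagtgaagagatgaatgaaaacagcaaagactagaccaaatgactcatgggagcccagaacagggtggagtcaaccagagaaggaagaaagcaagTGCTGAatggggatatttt
Ccl8: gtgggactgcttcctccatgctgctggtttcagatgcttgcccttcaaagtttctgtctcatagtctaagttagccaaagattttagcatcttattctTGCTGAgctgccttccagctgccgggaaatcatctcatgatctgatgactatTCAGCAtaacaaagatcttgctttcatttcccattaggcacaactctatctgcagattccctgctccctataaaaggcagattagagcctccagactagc
Cxcl1: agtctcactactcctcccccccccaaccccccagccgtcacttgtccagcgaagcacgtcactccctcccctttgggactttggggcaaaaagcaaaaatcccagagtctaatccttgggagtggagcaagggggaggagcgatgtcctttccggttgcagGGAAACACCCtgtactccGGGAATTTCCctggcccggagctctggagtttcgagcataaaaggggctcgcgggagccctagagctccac
Cxcl3: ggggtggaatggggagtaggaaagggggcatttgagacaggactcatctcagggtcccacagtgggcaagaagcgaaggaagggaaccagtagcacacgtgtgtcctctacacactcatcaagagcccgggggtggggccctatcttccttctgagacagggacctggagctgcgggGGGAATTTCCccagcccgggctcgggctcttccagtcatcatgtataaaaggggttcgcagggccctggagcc
TGCTGA began 131 bases before the C1qb start and 19 bases before this Folr2 start, and Ccl8 held 1 match on each strand. The Folr2 start at the annotated upstream end of the gene has the window chr7:101857191-101857440, minus strand. There TGCTGA began 220 bases before the start. Cbr2 and C1qc held none in their windows, and no window was available for C1qa. Of all 32851 RefSeq windows, 16.1% held TGCTGA, as did 7 of 24 windows of the resident list described below and 1 of 27 windows of the NF-kB list. The NF-kB motif was in 1.41% of all windows, in 9 of 27 windows of the NF-kB list and in 0 of 24 of the resident list. The matches describe these letters and were not tested as binding sites.

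The gated cells made up 4.19% (3.86 to 4.53, exact binomial interval) of kept IL4 barcodes and 5.02% (4.58 to 5.50) of kept control barcodes, a difference of -0.84 percentage points (-1.41 to -0.28). C1q-rich barcodes as a whole (at least 10 C1q UMIs) made up 27.5% in IL4 and 27.6% in control, a difference of -0.06 points (-1.25 to 1.13). Of the C1q-rich barcodes within the same lineage limits, 19.8% (18.4 to 21.3) in IL4 and 22.3% (20.5 to 24.1) in control held at least 2 UMIs of Folr2, Cbr2 and Ccl8. Gated cells were deeper than the other barcodes, with a median of 10282 against 8163.5 UMIs in IL4 and 11891 against 9046.5 in control, and a rule on raw UMIs favours deep barcodes. After barcodes were thinned to 2000 UMIs each, the share inside the rule was 1.11% in IL4 and 1.87% in control. The T and NK limit removed 174 of 799 barcodes (21.8%, 19.0 to 24.8) that passed both macrophage limits in IL4, and 74 of 544 (13.6%, 10.8 to 16.8) in control.

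Xist, which shuts down 1 X chromosome in females, and the Y-linked genes Ddx3y, Eif2s3y, Uty and Kdm5d were each found in cells of both libraries. Among barcodes with transcripts of 1 kind only, the Y-linked kind was 9.73% (7.24 to 12.7) of gated cells in IL4 and 25.4% (20.9 to 30.2) in control. Among the other barcodes it was 10.9% (10.3 to 11.5) in IL4 and 37.4% (36.2 to 38.6) in control. The control share of the gated cells thus lay below that of the other control barcodes, with intervals that do not overlap, whereas in IL4 the intervals overlap. Among Xist-only barcodes, 4.33% (3.95 to 4.75) of the IL4 library and 6.10% (5.40 to 6.86) of the control library were gated. Among Y-only barcodes the order turned round, with 3.83% (2.83 to 5.06) in IL4 and 3.56% (2.87 to 4.37) in control, and these intervals overlap. Values within each kind are given beside the main list medians. The groups and the kinds of cell in them cannot be fully told apart, since the sources used here do not tie cells to animals.

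The values at the limits of the rule are given as a description. With exactly 2 UMIs of Folr2, Cbr2 and Ccl8, 192 IL4 and 92 control cells were inside the rule, and 456 IL4 and 315 control C1q-rich barcodes with 1 such UMI were outside. Pf4, a platelet-type chemokine made by these macrophages, was at 669 CPM inside and 411 outside in IL4, and at 657 inside and 425 outside in control. CPM are UMIs summed over the cells and scaled to 1000000. Gas6 was at 10.9 CPM inside and 9.32 outside in IL4, and at 32.3 inside and 6.21 outside in control. At the C1q limit, 26 IL4 and 21 control cells had 10 to 12 C1q UMIs, and 29 IL4 and 20 control barcodes with 7 to 9 lay just outside. There Gas6 was at 46.9 CPM inside and 22.3 outside in IL4, and at 16.5 inside and 86.9 outside in control. These sets hold only 20 to 29 barcodes each and Gas6 is a low gene, so the values rest on few UMIs. No interval was computed for them, and no order across the C1q limit can be read from them.

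Set against the other barcodes of their own library, the gated cells were rich in the genes of resident macrophages. The genes of the rule led by construction. Ccl8 was 24.4-fold higher in IL4 and 32-fold in control (CPM plus 1), Folr2 16.2-fold and 26.6-fold, and Cbr2 15.0-fold and 25.4-fold, and these values are a description only. In all, 186 of 9540 genes with at least 50 UMIs in gated cells (1.95%) were at least 2-fold higher in both libraries and 265 (2.78%) at least 2-fold lower. All 6 genes that admitted cells are among the higher ones, which leaves 180, and Ccr7 of the rule is among the lower ones, which leaves 264. Since the cells were chosen by their transcripts, these counts describe the choice and are no test.

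Gas6 encodes a ligand of the receptors Axl and Mertk that bridges macrophages to dying cells. It was at 53.9 CPM in gated cells against 2.63 in other barcodes of the IL4 library, and at 102 against 3.61 in the control library. Lyve1, the hyaluronan receptor that marks perivascular macrophages, was at 10.4 CPM in gated cells against 0.348 in other IL4 barcodes, and at 62.3 against 0.882 in control. Ltc4s, the enzyme that makes leukotriene C4, was at 58.5 against 8.68 CPM in IL4 and at 140 against 12.3 in control. All 3 genes stood apart in both libraries, and the fold was larger in control in each case.

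Igf1, a growth factor, was 7.49-fold higher than in other barcodes in IL4 and 8.23-fold in control. Timp2, an inhibitor of matrix metalloproteases, was 6.56-fold and 7.84-fold higher, and Ms4a7, a membrane protein of macrophages, 6.48-fold and 6.88-fold. Pf4 was 8.26-fold and 9.41-fold higher. Apoe, which carries lipids out of macrophages, was at 3803 CPM in IL4 gated cells and 3468 in control gated cells, 4.56-fold and 4.72-fold above the other barcodes.

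Of the 24 genes on the list of resident macrophage genes, 21 had enough UMIs, and 16 of these were at least 2-fold higher than in other barcodes in both libraries. The list holds no gene of the rule. F13a1, Dab2, Hpgd, Gpr34 and Cx3cr1 were the members that did not reach 2-fold in both. Of the other members, Timd4, an efferocytosis receptor of resident macrophages in body cavities and liver, had 10 UMIs in IL4 gated cells and 6 in control gated cells. Timd4 was lower than in other barcodes, at 1.55 against 6.70 CPM in IL4 and 1.03 against 6.19 in control. Vsig4, a complement receptor, had 8 and 3 UMIs. Slc40a1 had 30 and 5 UMIs, at 4.66 CPM against 1.04 in other IL4 barcodes, but 0.856 against 2.17 in control. Lyve1 was found in 26 of 576 IL4 cells (4.51%) and 87 of 449 control cells (19.4%), so most gated cells gave no Lyve1 UMI. After thinning to 2000 UMIs it was found in 2.11% (1.09 to 3.65) of IL4 and 8.58% (6.14 to 11.6) of control gated cells, and in 0 T and NK barcodes of either library, which allows shares of up to 0.471% and 0.843%. Thinned in the same way, Pf4 was found in 56.1% of IL4 and 66.6% of control gated cells, against 4.73% and 4.82% of T and NK barcodes. Mrc1 was found in 47.1% and 60.5% of thinned gated cells, against 8.18% and 9.17%, and Gas6 in 8.26% and 17.2%, against 0% and 0.229%. Over the whole list, 3.69% of IL4 and 1.81% of control gated cells had 0 resident UMIs after thinning, so the single genes were patchy and the list as a whole was not. Most C1q-rich barcodes with no UMI of Folr2, Cbr2 or Ccl8 also held some list UMI. Among them 14.1% in IL4 and 9.93% in control had 0.

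Other functions also differed from the rest of the sort, which holds lymphocytes, neutrophils and dendritic cells as well as macrophages. Counts for these lists against the closest cells are given in the next paragraph. Of 20 lysosomal genes, 5 were at least 2-fold higher in both libraries, namely the proteases Ctsb, Ctsd, Ctsl and Lgmn and the lysosomal protein Grn. Of 15 genes of iron and haem handling, 4 were, among them Hmox1, which breaks down haem, and Blvrb, which acts on its product. Of 11 complement genes outside C1q, C4b, Cfb, C3ar1 and C5ar1 were. Of 16 efferocytosis and scavenger genes, Mertk, Cd36, Trem2 and Cd209f were. None of 12 genes of MHC class II presentation reached 2-fold higher, and H2-DMb2 was at least 2-fold lower. None of 24 genes of the NF-kB list reached 2-fold in either direction in both libraries.

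A closer comparison is with C1q-rich barcodes that held no UMI of Folr2, Cbr2 or Ccl8 (1878 in IL4 and 1253 in control, called trio-negative here). In both libraries 85 genes (0.891%) were at least 2-fold higher in gated cells and 25 (0.262%) at least 2-fold lower. The higher ones include C1qa, Folr2, Cbr2 and Ccl8 of the rule, which leaves 81. The resident list gave 14 of 21 higher. Of 20 lysosomal genes 0 were at least 2-fold higher than in trio-negative barcodes, and of 11 complement genes outside C1q 1 was. Of 16 efferocytosis and scavenger genes 3 were, and of 15 iron and haem genes 2 were. Lgmn, for instance, was 1.69-fold higher in IL4 and 1.79-fold in control. Gas6 was 18.8-fold higher in IL4 and 29.4-fold in control, Lyve1 9.35-fold and 40.2-fold, and Cd163, the haptoglobin-haemoglobin receptor, 4.43-fold and 11.9-fold. Ltc4s was 6.0-fold and 9.30-fold higher and Pf4 5.91-fold and 6.31-fold. Fcgrt, the neonatal Fc receptor, was 3.29-fold and 6.28-fold higher. Maf was at 382 CPM in gated against 253 in trio-negative IL4 cells, and at 545 against 256 in control. H2-Ab1, an MHC class II chain, was at 2270 against 2892 CPM in IL4 and at 2493 against 3109.8 in control.

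**Figure D1:**
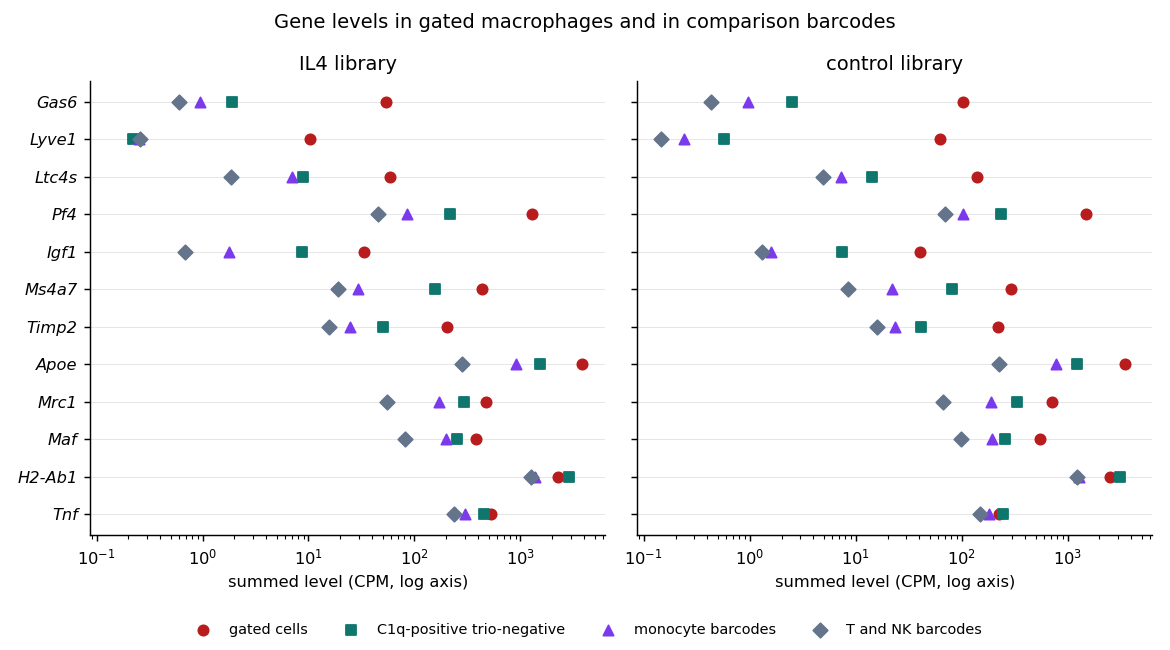
Summed levels (CPM, log axis) of 12 genes in gated cells, C1q-positive trio-negative barcodes, monocyte barcodes and T and NK barcodes, with the IL4 library on the left and the control library on the right. Gas6, Lyve1, Ltc4s and Pf4 lie far to the right in gated cells, while H2-Ab1 and Tnf lie close to the trio-negative level.

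Transcripts of lymphocytes were limited by the rule, which holds Cd3d, Cd3e, Cd3g and Ncr1 of these lists at 0, while the T and NK barcodes were chosen for them. The summed level of 12 T cell markers was 21.9 CPM in IL4 gated cells and 11.5 in control gated cells, against 2864 and 3067 in T and NK barcodes, or 1881 and 2057.5 there without the 3 Cd3 genes. That of 12 NK cell markers was 74.5 and 29.6 CPM, against 3232 and 2466, or 3163 and 2411 there without Ncr1, and 6 of the 7 measured NK markers were higher in IL4 gated cells. The neutrophil markers summed to 73.1 CPM in IL4 and 128 in control gated cells, against 26390 and 17124 in neutrophil barcodes. B cell markers summed to 64.4 and 89.6 CPM, of which Ighm gave 55.6 and 74.7. Melanoma markers summed to 213 and 222 CPM. Of this, Mitf, which is also on the list of macrophage transcription factors, gave 194 and 209. Markers of fibroblasts and endothelium summed to 46.7 and 45.5 CPM. Markers of classical monocytes summed to 2954 CPM in IL4 and 3011 in control gated cells, against 3695 and 3613 in other barcodes. In monocyte barcodes, chosen by Ly6c2, Vcan and Chil3, they summed to 7616 and 6999. Ly6c2 was at 275 and 122 CPM in gated cells, against 216 and 122 in other barcodes. Ccr2 was at 260 and 413, against 280 and 339. Markers of non-classical monocytes summed to 961 and 721 CPM, against 1156 and 1070 in other barcodes. Among dendritic cell lists, type 1 markers summed to 313 and 403 CPM, type 2 markers to 371 and 421, mature migratory markers to 577 and 314 and plasmacytoid markers to 890 and 831. The rule limits Xcr1, Clec9a, Ccr7 and Siglech of these lists, and without them the type 1 sums were 310 and 401 CPM, the mature migratory sums 568 and 306 and the plasmacytoid sums 889 and 831. Most of the plasmacytoid sums came from Bst2, at 662 and 613 CPM, and Tcf4, at 198 and 193. T cell and NK sums were thus higher in IL4 gated cells and neutrophil and B cell sums higher in control gated cells. The mature migratory sum was also higher in IL4, but Ccl5, also a gene of T and NK cells, gave 361 and 124 CPM of it. Of its 10 measured members 3 were higher in IL4 and 7 within 1.5-fold, among the latter Ccr7, Fscn1, Ccl22 and Ccl17. The part of all these transcripts in the results below was tested only where a value without barcodes rich in them is given.

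Between the libraries, gated cells of IL4 held more transcripts of inflammatory cytokines, chemokines and interferon-stimulated genes, and fewer of the resident genes that distinguish these cells. Of 9540 genes with at least 50 UMIs, 383 (4.01%) were at least 1.5-fold higher and 744 (7.80%) at least 1.5-fold lower on the scale of CPM plus 1. The median log2 ratio over all these genes was -0.13. Scaling by the median of ratios moves all values by 0.14, and the split then is 587 higher and 394 lower. Over the 11173 genes with at least 20 UMIs, which serve as background for the lists, 4.75% were higher and 9.58% lower, and their median was also -0.13. The gene lists and their members were chosen with earlier results of these data known.

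**Figure D2:**
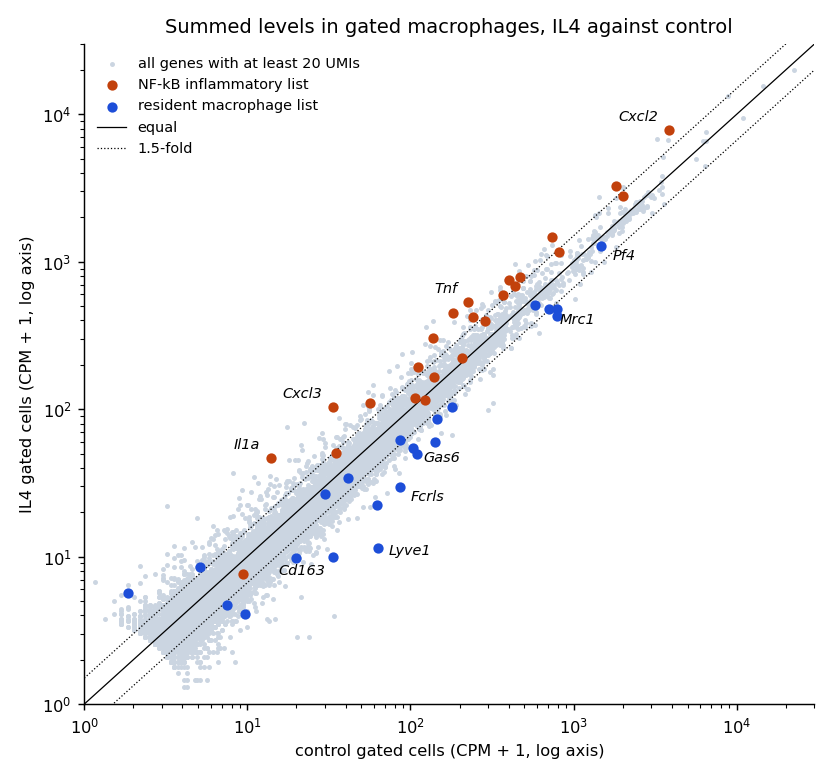
Summed level of each gene in IL4 gated cells (vertical axis) against control gated cells (horizontal axis), both in CPM plus 1 on log axes, with lines at equality and at 1.5-fold. Members of the NF-kB list lie above the line of equality apart from Il6 and Icam1, and members of the resident list lie below it apart from Cd5l and Slc40a1.

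The NF-kB list was higher in IL4. Of 24 measured members 15 were at least 1.5-fold higher in IL4 gated cells and 0 lower. Its median log2 ratio was 0.77. Xist-only cells alone gave 0.79 and Y-only cells 0.81. NF-kB is a transcription factor family that drives cytokine and chemokine genes after danger signals, and it also induces its own inhibitors.

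Among the cytokines, Tnf was at 533 CPM (515 to 551) in IL4 and 226 (213 to 238) in control gated cells, a 2.36-fold difference (2.22 to 2.52). Il1a, an alarmin of the interleukin-1 family, was at 45.5 CPM (40.4 to 51.0) in IL4 and 13 (10.3 to 16.3) in control, and Il1b at 1461 and 732 CPM. Il6 did not share this direction, with 43 UMIs in IL4 and 49 in control.

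The neutrophil-attracting chemokines Cxcl1, Cxcl2 and Cxcl3 were all higher in IL4. Cxcl1 and Cxcl3 carry the NF-kB motif shown above, and no window is given for Cxcl2. Cxcl2 was at 7878 CPM in IL4 and 3841 in control gated cells. Cxcl1 was at 449 CPM (433 to 466) in IL4 and 181 (171 to 193) in control gated cells, 2.47-fold higher (2.30 to 2.66). Thinned to 2000 UMIs it was found in 30.2% (26.5 to 34.2) of IL4 and 16.3% (12.9 to 20.02) of control gated cells, against 8.82% and 3.90% of T and NK barcodes, where it is taken as background. Within Xist-only gated cells its log2 ratio was 1.59, and within Y-only ones 0.43. Cxcl3 was at 103 CPM (95.4 to 111) in IL4 and 32.5 (28.1 to 37.5) in control, and 5 cells held 30.0% of its UMIs in IL4 and 43.7% in control.

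The feedback genes moved with the cytokines. Nfkbia, which encodes the inhibitor that holds NF-kB in the cytoplasm, was at 3273 CPM in IL4 and 1818 in control gated cells. Tnfaip3, a ubiquitin-editing inhibitor of the pathway, was at 789 and 468 CPM. The subunit gene Nfkb1 was at 751 and 402 CPM and Rel at 687 and 435, whereas Relb, at 119 and 106, and Nfkb2, at 49.2 and 34.1, stayed within 1.5-fold.

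The same list was higher in IL4 outside the gate, by less. Its median log2 ratio was 0.48 in trio-negative barcodes, 0.36 in monocyte barcodes and 0.35 in all other barcodes. Its summed level was 22620 CPM in IL4 gated cells and 24316 in IL4 trio-negative barcodes, but 12775 CPM in control gated cells and 17464 in control trio-negative barcodes. Control gated cells thus lay below their C1q-rich neighbours in these transcripts, and IL4 gated cells lay close to theirs. Cxcl3 shows it most, at 103 CPM in gated and 127 in trio-negative IL4 cells, but 32.5 against 127 in control, with log2 ratios of IL4 over control of 1.63 in gated and 0.01 in trio-negative barcodes. With 1 library per group the difference between these populations was not tested.

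Of 14 measured chemokine genes outside that list, 8 were higher in IL4 and 1 lower (median 0.69). The median was 0.85 for Xist-only cells and 0.35 for Y-only cells, where 4 of 12 were higher and 2 lower. Ccl4, which attracts monocytes and T cells, was at 6846 CPM in IL4 and 3256 in control gated cells, 2.10-fold higher (2.07 to 2.14). Ccl7, which draws monocytes through Ccr2, was at 2730 and 1422 CPM. Cxcl10, the interferon-inducible ligand of Cxcr3, was at 1222 and 662 CPM. Ccl5 was at 361 CPM in IL4 and 124 in control, and it is also a gene of T and NK cells, found in 79.3% and 72.0% of thinned T and NK barcodes. Without the gated barcodes that held at least 3 UMIs of the T and NK marker lists (38 in IL4 and 17 in control), its log2 ratio was 1.53, against 1.54 with them. Any UMI of these lists was found in 248 of 576 IL4 and 132 of 449 control gated cells. Most such cells thus stayed in, and the part of T and NK transcripts in the Ccl5 difference is not settled. Ccl24, the eosinophil attractant eotaxin-2, went the other way, at 66.3 CPM in IL4 and 178 in control.

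Of 14 genes for anti-inflammatory and growth factors, 9 were higher in IL4 and 0 lower (median 0.67, with 0.64 for Xist-only and 1.23 for Y-only cells). Il10, which restrains macrophage activation, was at 238 CPM (226 to 250) in IL4 and 88.4 (80.9 to 96.3) in control gated cells, 2.69-fold higher (2.43 to 2.98). It was found in 290 of 576 IL4 and 126 of 449 control gated cells, and after thinning in 28.1% (24.5 to 32.01) and 11.96% (9.09 to 15.4), against 8.70% and 3.90% of T and NK barcodes. Its log2 ratio of 1.42 had the same size in other barcodes (1.47), so the Il10 difference ran through the sort. Il1rn, the interleukin-1 receptor antagonist, was at 197 and 81.5 CPM. Areg, an EGF receptor ligand, was at 74.5 and 16.4 CPM, but 5 cells held 50.4% of its UMIs in IL4 and 76.0% in control.

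Of 18 type I interferon response genes, 8 were higher in IL4 and 0 lower (median 0.50). Isg15, a ubiquitin-like antiviral protein, was at 748 CPM in IL4 and 385 in control gated cells, and Oasl1 at 776 and 399. The list median was 0.49 in trio-negative and 0.66 in monocyte barcodes, so this difference was about as large or larger outside the gate. Of 18 interferon gamma response genes 4 were higher and 1 lower (median 0.13).

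**Figure D3:**
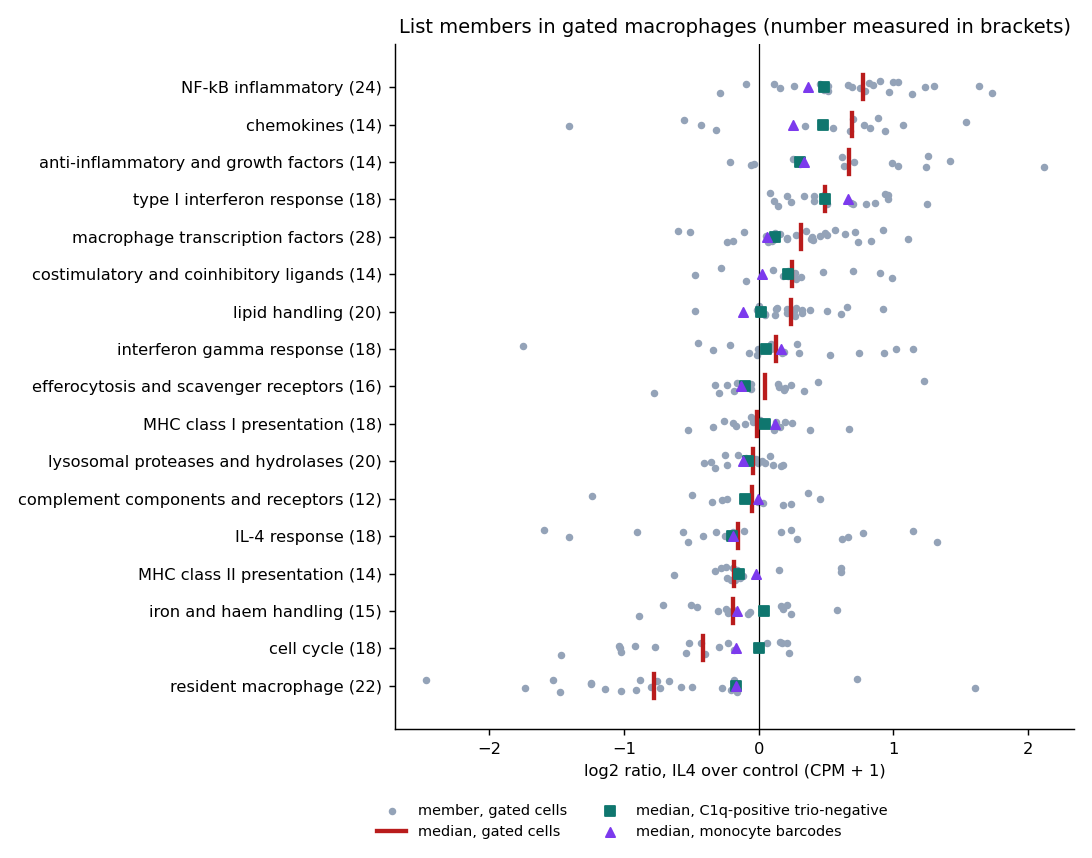
Log2 ratio of IL4 over control (CPM plus 1) for each measured member of 17 gene lists in gated cells, with the list median in gated cells (bar), in trio-negative barcodes (square) and in monocyte barcodes (triangle). The medians of the NF-kB, chemokine and resident lists lie farther from 0 in gated cells than in both other populations, and the interferon median lies at the trio-negative median and below the monocyte one.

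The resident list went the other way. Of 22 measured members, 14 were at least 1.5-fold lower in IL4 gated cells and 2 higher. The median log2 ratio was -0.78, with -0.89 for Xist-only cells and -1.05 for Y-only cells. In trio-negative and monocyte barcodes the medians were -0.17 for both. Lyve1 was at 10.4 CPM (8.06 to 13.2) in IL4 and 62.3 (56.1 to 69.1) in control gated cells, 5.99-fold lower in IL4 (4.61 to 7.90). Cd163 was at 9.0 CPM (6.84 to 11.6) in IL4 and 32.4 (27.9 to 37.3) in control. Gas6 was at 53.9 CPM (48.4 to 59.9) in IL4 and 102 (94.3 to 111) in control. These genes are low and uneven, with 52.2% of the Lyve1 UMIs in 5 cells of IL4 and 28.0% in 5 cells of control.

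Other members lower in IL4 were Fcrls, at 28.9 and 84.9 CPM, the binding protein gene Igfbp4, at 21.3 and 61.0, Ltc4s, at 58.5 and 140, and Selenop, a selenium carrier, at 478 and 794. F13a1, a coagulation factor subunit, was at 426 CPM in IL4 and 785 in control, and Stab1, a scavenger receptor, at 85.1 and 144. Pf4 was within 1.5-fold, at 1282 and 1480 CPM, as were Mrc1 (the mannose receptor CD206), at 475 and 709, Dab2, at 507 and 576, and Igf1, at 33.1 and 40.2. The 2 higher members had few UMIs, 48 and 24 for Cd5l and 30 and 5 for Slc40a1. Of the genes of the rule, Cbr2 was at 169 CPM in IL4 and 319 in control, Folr2 at 156 and 229, Ccl8 at 544 and 445 and C1qa at 2145 and 2298. Ccl8 and Folr2 had no fixed direction: within Y-only cells their log2 ratios were -0.78 and 0.15, against 0.29 and -0.55 in all, and Ccl8 was at -0.16 with control cells weighted to the IL4 mix of combinations. In cells with Ccl8 alone, Ccl8 was at 790 CPM in IL4 and 1798 in control. Maf was at 382 CPM in IL4 and 545 in control.

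Genes known to respond to interleukin-4 in macrophages did not move together. Of 18 measured members of that list 5 were higher in IL4 and 3 lower (median -0.15). The median turned round within each kind of cell. It was 0.19 for Xist-only cells, with 6 of 17 higher and 4 lower, and 0.23 for Y-only cells, with 6 of 17 higher and 7 lower. Egr2, an early transcription factor of alternative activation, was at 146 CPM (137 to 156) in IL4 and 57.7 (51.7 to 64.2) in control. Retnla, a secreted protein and classic marker of that state, was at 97.7 CPM in IL4 and 297 in control, but it was found in only 39 IL4 and 61 control cells, and 5 cells held 80.6% of its UMIs in IL4 and 63.2% in control. Mgl2, a lectin, was at 25.9 and 70.4 CPM. Arg1, the arginase of alternatively activated macrophages, was at 304 CPM in IL4 and 249 in control gated cells, while in trio-negative barcodes it was at 225 and 442. The receptor chain gene Il4ra was at 143 and 127 CPM. Smyd5, a methyltransferase gene named in the study's title, had 51 UMIs in IL4 and 63 in control gated cells, and its fold of 0.734 (0.497 to 1.08) was not distinguishable from 1 at this depth.

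Antigen presentation differed little. Of 14 MHC class II genes 1 was lower, 2 were higher and 11 lay within 1.5-fold (median -0.18, and 0.01 in Y-only cells). H2-Ab1 was at 2270 CPM in IL4 and 2493 in control gated cells and Cd74, the invariant chain, at 4950 and 5652. Ciita, the master regulator of the class II genes, was at 39.7 CPM (35.0 to 44.9) and 62.2 (55.9 to 68.9). The higher members, H2-Oa and H2-Ob, had 27 and 14 UMIs each. Of 18 MHC class I genes 1 was higher and 0 lower, with H2-K1 at 1597 and 1346 CPM. Of 14 genes on the list of costimulatory and coinhibitory ligands 3 were higher. They were Cd274 (PD-L1), at 265 and 141 CPM, Tnfsf9 (4-1BB ligand), at 77.8 and 38.7, and Havcr2, at 38.7 and 23.5. Havcr2 encodes a receptor rather than a ligand.

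The remaining functions were mostly level, but the lipid and macrophage transcription factor lists leaned higher in IL4 and the cell cycle list lower. None of 20 lysosomal genes passed 1.5-fold in either direction (median -0.04). Of 12 complement genes 0 were higher and 1 lower (median -0.05). Of 16 efferocytosis and scavenger genes, Mertk was lower, at 77.5 and 134 CPM, and Olr1, a receptor for oxidised lipoprotein, was higher, at 63.0 and 26.4. Of 20 lipid genes 3 were higher and 0 lower (median 0.24). Among the higher were Abca1, the cholesterol exporter, at 326 and 213 CPM, and Nr1h3, its regulator, at 47.2 and 24.5. Of 28 macrophage transcription factor genes 6 were higher and 1 lower (median 0.31). Of 15 iron and haem genes 0 were higher and 2 lower (median -0.19), of 8 Fc receptor genes 0 and 1 (median 0.02), and of 20 genes of hypoxia and glycolysis 1 and 2 (median 0.02). Of 18 cell cycle genes 6 were lower and 0 higher (median -0.41, with -0.37 for Xist-only cells and -1.42 over 10 members for Y-only cells).

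Stress genes were uneven between the libraries, and whether this came from handling was not tested. Of 20 genes of heat shock and dissociation stress, 8 were lower in IL4 gated cells and 4 higher. The heat shock genes Hsph1 (110 and 318 CPM), Bag3 (67.5 and 152) and Hspa1b (554 and 1014) were lower in IL4, and the immediate-early genes Ier2 (468 and 252) and Dusp1 (3160 and 2020) were higher. In the other barcodes Hsph1 had a log2 ratio of -1.08, against -1.52 in gated cells. The median mitochondrial share was 1.10% of UMIs in IL4 and 1.41% in control gated cells. The part of these differences in the results above was not tested.

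Of the 12 genes with the highest ratios, Lipg (endothelial lipase) was at 21.1 CPM in IL4 and 2.23 in control gated cells, with 65.4% of its IL4 UMIs in 5 cells. Acod1, which makes itaconate, was at 396 and 136 CPM, and Il7r, an interleukin-7 receptor chain, at 33.8 and 9.93. Mir155hg, the host gene of a microRNA of activated leukocytes, was at 56.0 and 20.2 CPM, and its log2 ratio was 1.75 in Xist-only cells but turned to -0.47 among Y-only ones. Flrt3, at 24.1 and 7.88 CPM, and Syngr1, at 30.6 and 10.6, were also among the 12, as were Areg, Il1a, Cxcl3, Ccl5 and Il10 above. Of the 12 lowest, S100a9 was at 2.95 CPM in IL4 and 33.0 in control, and G0s2 at 1.86 and 22.8. In control 67.4% of the S100a9 UMIs and 78.2% of the G0s2 UMIs lay in 5 cells. S100a9 is a neutrophil gene, and with barcodes rich in B cell or neutrophil transcripts left out its log2 ratio was -1.76, against -3.11 with them. Nfia and Rcn3 were also among the lowest, at 7.92 and 23.5 CPM and at 10.2 and 30.0.

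Single cells gave the same picture and added how the programmes combine. In cells thinned to 2000 UMIs (569 in IL4 and 443 in control, with 7 and 6 shallower cells left out), the NF-kB list gave a median of 45 UMIs (quartiles 32 and 62) in IL4 and 24 (11 and 37) in control gated cells. The resident list gave 6 (3 and 11) in IL4 and 9 (5 and 16) in control. The control upper quartile of the NF-kB list was thus below the IL4 median, whereas the resident distributions overlapped more.

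The programmes were related differently in the libraries. Across control gated cells, Spearman's rho between resident and NF-kB UMIs was -0.33 (443 cells of 1 library), and across IL4 gated cells it was 0.02 (569 cells). In control, cells with 10 or more resident UMIs had a median of 17 NF-kB UMIs (208 cells), those with 5 to 9 had 30 (151 cells) and those with 0 to 4 had 29 (84 cells). In IL4 the medians were 47 (172 cells), 43 (184 cells) and 46 (213 cells). The most resident-like control cells were therefore the low ones in NF-kB transcripts, and IL4 cells of the same resident level were not. Cells of a library share its handling and are no replicates, counts thinned to a fixed total pull against each other, and the difference between the libraries was not tested. Resident and MHC class II transcripts ran against each other in both libraries, with rho of -0.34 in IL4 and -0.40 in control.

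**Figure D4:**
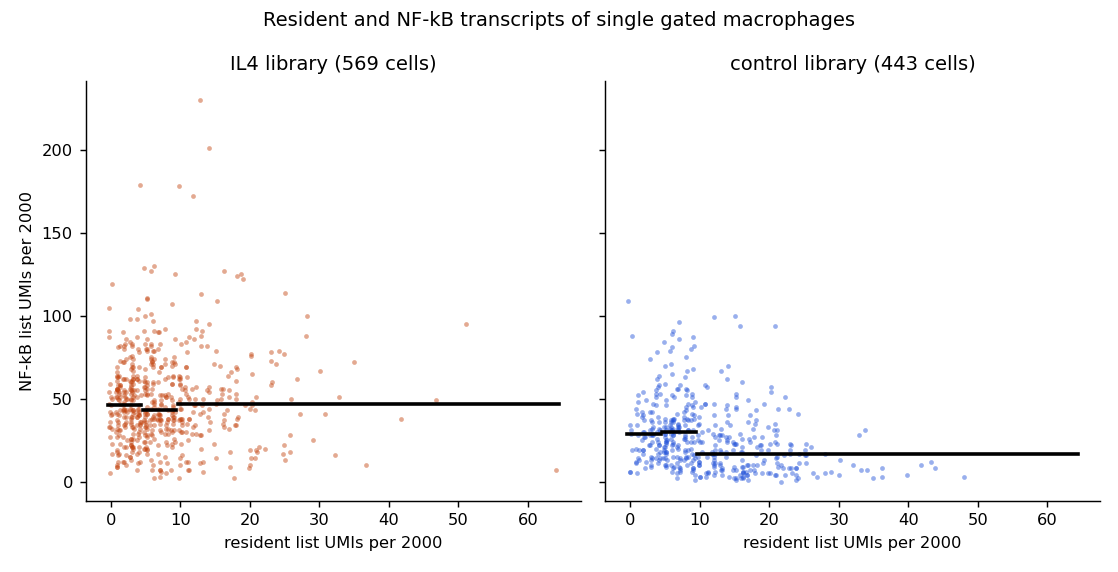
UMIs of the NF-kB list (vertical axis) against UMIs of the resident list (horizontal axis) per gated cell thinned to 2000 UMIs, for IL4 on the left and control on the right, with black bars at the median NF-kB count of cells with 0 to 4, 5 to 9 and 10 or more resident UMIs. The bars lie at 46, 43 and 47 in IL4 and at 29, 30 and 17 in control.

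The cells were not uniform in the genes that admitted them. Folr2 and Cbr2 without Ccl8 was the largest combination, with 145 of 576 cells (25.2%, 21.7 to 28.9) in IL4 and 170 of 449 (37.9%, 33.4 to 42.5) in control. All 3 genes were found in 79 IL4 cells (13.7%, 11.0 to 16.8) and 75 control cells (16.7%, 13.4 to 20.5). Ccl8 alone admitted 84 IL4 cells (14.6%, 11.8 to 17.7) and 33 control cells (7.35%, 5.11 to 10.2), and Folr2 alone 85 (14.8%, 11.96 to 17.9) and 37 (8.24%, 5.87 to 11.2). IL4 gated cells thus held a larger share with Ccl8 alone or Folr2 alone, and control gated cells a larger share with Folr2 and Cbr2. Cbr2 alone did not follow this, with 13.7% in IL4 and 16.7% in control.

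Gas6, which took no part in the rule, was highest in cells with all 3 genes and lowest in cells with Ccl8 alone. It was at 165 CPM (141 to 193) in IL4 and 256 (226 to 288) in control cells with all 3, and at 8.62 (3.94 to 16.4) and 18.9 (8.64 to 35.9) in cells with Ccl8 alone. The Ccl8-alone values rest on 9 Gas6 UMIs in each library. Their intervals overlap those of Folr2 alone, at 17.1 CPM (9.94 to 27.3) in IL4 and 37.3 (20.9 to 61.6) in control. In control they also overlap that of Cbr2 alone (28.2 to 56.2), so the lowest place is not settled. Lyve1 was at 31.8 CPM in IL4 and 147 in control cells with all 3, and at 0.958 and 2.10 in cells with Ccl8 alone. Cells admitted by Ccl8 alone had 770 CPM of Pf4 in IL4 and 1263 in control, and 3421 and 3785 CPM of Apoe. Their C1qa level was 2475 and 2329 CPM, so C1qa and Apoe were near the levels over all gated cells. In IL4, Lyve1 had 0 UMIs in the 54 cells with Folr2 and Ccl8, so the lowest Lyve1 value there was not that of Ccl8 alone. A gate of Folr2 and Cbr2 without Ccl8 gave 3.10% of IL4 and 4.31% of control barcodes.

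**Figure D5:**
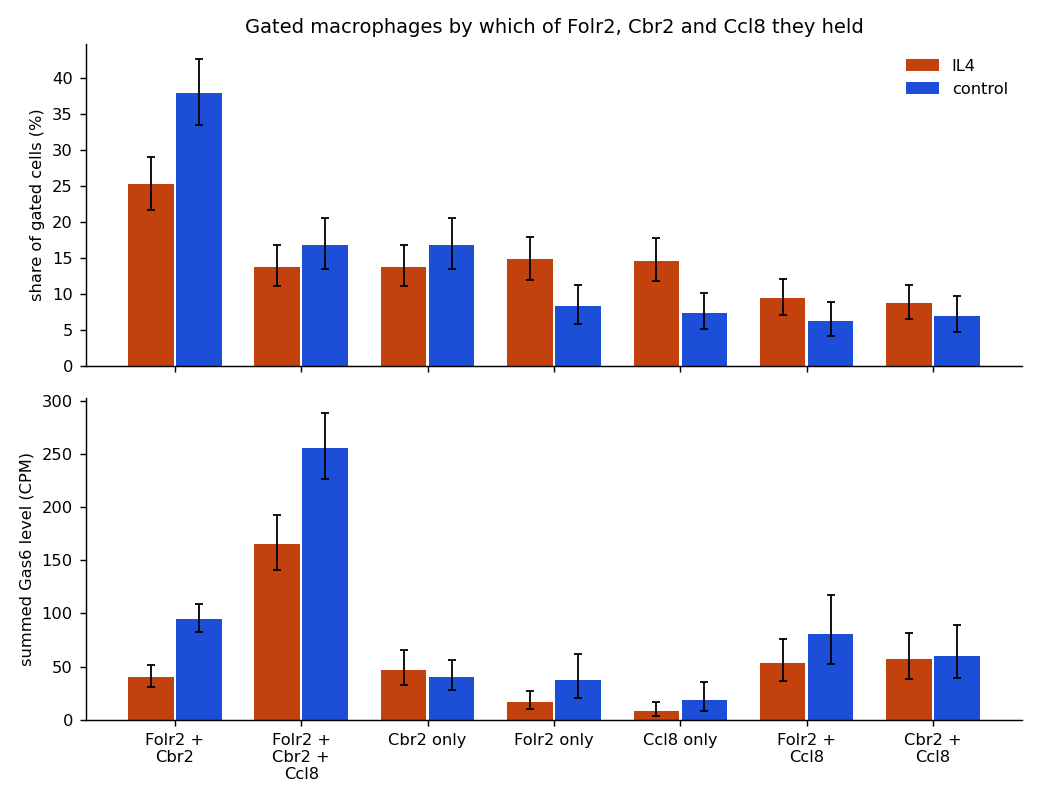
Share of gated cells by which of Folr2, Cbr2 and Ccl8 they held (upper panel, with exact binomial 95% intervals) and the summed Gas6 level of the same cells (lower panel, CPM, with exact Poisson 95% intervals), with IL4 left of control in each pair. Gas6 is highest in cells with all 3 genes and lowest in cells with Ccl8 alone in both libraries. The Gas6 intervals of Ccl8 alone and Folr2 alone overlap.

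The direction of both list medians was the same within these subsets. The NF-kB median was 0.70 in cells with Ccl8 and Folr2 or Cbr2, 0.80 in cells with Ccl8 alone and 0.80 in cells without Ccl8. The resident median was -0.79 in the first of these subsets, -0.39 in the second (13 measured members) and -0.80 in the last. With control cells weighted to the IL4 mix of combinations, the NF-kB median was 0.66 and the resident median -0.62, against 0.77 and -0.78 without weighting. Then 11 rather than 14 resident members were at least 1.5-fold lower. The weighting evens only which of the 3 genes were detected, and the part of the mix in these differences was not tested. The chemokine median was 0.59, 0.13 and 0.84 in the same subsets, so it was smallest in cells with Ccl8 alone.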

How the data were processed

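The deposited values are raw UMI counts, whole numbers for each gene in each barcode. The submitters' processing notes name Cell Ranger 7.2.0 and mm10, and no annotation release was found in the labels. A barcode was kept with 500 UMIs and 250 genes or more and a mitochondrial share of no more than 10%, which left 13762 of 13873 in IL4 and 8937 of 8994 in control. Rows that share a symbol were summed, which took 32285 genes to 32245 symbols. No deposited cell annotation was used here, and no doublet caller was run. Both libraries shared 23 kept barcode sequences, of which 1 was gated in IL4 and 0 in control.

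The comparison barcodes were set by UMI limits. Trio-negative barcodes met the C1q and lineage limits with 0 UMIs of Folr2, Cbr2 and Ccl8. Monocyte barcodes had fewer than 3 C1q UMIs, at least 5 of Ly6c2, Vcan and Chil3 and fewer than 50 of S100a8 and S100a9, within the same lineage limits. T and NK barcodes had at least 3 UMIs of Cd3d, Cd3e, Cd3g and Ncr1 and fewer than 10 of C1q. Neutrophil barcodes had at least 50 UMIs of S100a8 and S100a9 and at least 2 of Csf3r, Cxcr2 and Retnlg.

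UMIs were summed per library and population and scaled to counts per 1000000 UMIs (CPM). Log2 ratios and folds against other populations use CPM plus 1, and folds between libraries given with an interval do not. Intervals are exact Poisson for CPM, exact conditional for folds, Clopper-Pearson for shares and Newcombe for differences of shares, all at 95%. The calculation of ratios and calls was tested on simulated data. Python 3.11.15, numpy 2.4.6, scipy 1.17.1, pandas 2.3.3 and matplotlib 3.10.9 were used. Of 32285 gene IDs, 32158 were found in GENCODE M21.

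Members, comparison barcodes and the 32 gene lists were chosen with earlier results of these data known, and 12 of the lists hold markers of other cell types. Named genes needed at least 50 UMIs in gated cells over both libraries and 20 CPM in the higher library. They were the 12 highest and 12 lowest ratios of IL4 over control, the 12 highest folds over other barcodes and over trio-negative barcodes, the members of each list that moved most (4 at most), the genes of the rule, and fixed genes. Mitochondrial, ribosomal, immunoglobulin, T cell receptor, haemoglobin, sex-linked and predicted genes were left out. Further list members were named after their values were seen. Some genes that the rule selects are not reported here.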

Additional observations from a re-analysis of the deposited data

How the results depend on the processing

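No paired analysis was possible because there is 1 library per group and no test was run. The share of kept barcodes inside the rule was 4.72% in IL4 and 5.63% in control with limits per 10000 UMIs, 1.11% and 1.87% after thinning to 2000 UMIs, 1.90% and 3.11% with at least 20 C1q and 4 trio UMIs, 3.10% and 4.31% without Ccl8, and 3.83% and 3.56% among Y-only barcodes. It was 6.10% in control among Xist-only barcodes. The difference of IL4 minus control was 0.27 points among Y-only barcodes, against -0.84 points in all, and the cause was not tested. Genes at least 2-fold higher than in other barcodes numbered 186, but 105 in Y-only barcodes and 117 with a pseudocount of 5 CPM. Those at least 2-fold lower numbered 265, but 69 in Y-only barcodes, 745 with no filter on low counts and 105 with a minimum of 200 UMIs. Genes higher in IL4 numbered 383, but 839 with no filter, 226 with a minimum of 200 UMIs and 587 with scaling by the median of ratios. Genes lower in IL4 numbered 744, but 1642, 315 and 394 under the same settings and 327 with a pseudocount of 5 CPM. Fewer genes pass a higher minimum, and the cause of the other changes was not tested. Of the named genes at least 1.5-fold apart, the log2 ratios of Mir155hg (-0.47), Pparg (-0.59) and Tnip3 (-0.00117) turned round in Y-only cells, which number 47 in IL4 and 89 in control. Over the settings tried for every list, which do not include the subsets by Folr2, Cbr2 and Ccl8, the NF-kB median ran between 0.66 and 1.10, the resident median between -1.05 and -0.62, the type I interferon median between 0.36 and 0.72 and the chemokine median between 0.35 and 0.88. The MHC class II median ran between -0.29 and 0.01, and the IL-4 response median between -0.22 and 0.23. Of 478 alternative values of list medians 431 kept the sign of the main value, as did 1974 of 2033 values of named genes. The other 59 values belong to 32 genes, and 23 of these values are from Y-only cells. Of the 59, 56 are of genes within 1.5-fold in the main comparison, such as Ccl8, Folr2 and C4b (1.03 in Y-only cells, against -0.34). Leaving out cells with T and NK transcripts and weighting control to the IL4 mix were chosen after seeing the data. Genes with fewer than 50 UMIs in gated cells, such as Timd4 and Vsig4, are limited by depth.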
